A study of Mus musculus with 24 samples.

Results

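The RNA of 8 tight junction genes was followed in mouse embryonic stem cells (ESCs) that lack Tet enzymes. The genes are the claudins Cldn3, Cldn4, Cldn5, Cldn6, Cldn7 and Cldn9, occludin (Ocln) and the scaffold gene Tjp1. They make up 8 of the 22926 gene symbols in the count tables, and were taken by name, each from the first line that bears its symbol. Cldn4 was selected on these data, for a larger DKO effect at day 6 than at day 0, so its values in DKO and the day difference of the DKO effect of every member are given as a description with no test.

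The 24 libraries each hold polyadenylated RNA of 1 clone, at day 0 with leukemia inhibitory factor (LIF) or after 6 days without it (D0 and D6, 12 libraries each). By their labels they come from 13 clones, 11 of them sampled at both days. All clones come from 1 parental clone of 129/SVj-derived ESCs with eGFP knocked in at the Pou5f1 (Oct4) locus, so the WT carries Oct4:IRES:eGFP as every knockout does. Each day had 3 clones of WT (O4.1, O4.2, O4.13), 3 of Tet1-/- (Tet1_KO_2.1 and Tet1_KO_2.4 at both days, Tet1_KO_2.3 at D0 and Tet1_KO_2.2 at D6), 2 of Tet2-/- (Tet2_KO_3.10, Tet2_KO_3.11), 2 of DKO, which is Tet1-/-:Tet2-/- (DKO_5.11 and DKO_5.12, the latter written DKO_512 at D6), and 2 of TKO, which also lacks Tet3 (TKO_8.4, TKO_8.12). Deletions were made with CRISPR/Cas9 from a transiently transfected plasmid and selection in puromycin. A genotype is thus a small set of clones of 1 line, and p-values measure the spread between those clones. D0 and D6 counts came in separate tables, and day cannot be told apart from anything else that differed between these sets of libraries.

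Tight junctions seal the space between neighbouring epithelial cells. Claudins span the membrane and pair across the cell gap to set what passes, occludin is a second kind of membrane strand protein, and Tjp1 (ZO-1) is the cytoplasmic scaffold that ties the strands to actin. Cldn6 and Cldn7 are known from early embryonic epithelium, Cldn3 and Cldn4 are broadly epithelial, and Cldn5 is best known from endothelium. Tet enzymes oxidise 5-methylcytosine in DNA, a step toward its removal. LIF is a cytokine added to mouse ESC cultures against differentiation, and cultures left without it come to hold epithelial cells among other types.

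In the mm9 genome (NCBIM37, GENCODE vM1), Cldn4 (chromosome 5, 135420996 to 135422804, minus strand) and Cldn3 (chromosome 5, 135462084 to 135463342, plus strand) are single-exon neighbours with 39279 bases and 0 annotated genes between them. Cldn6 (chromosome 17, 23816332 to 23819413, plus strand) and Cldn9 (chromosome 17, 23819552 to 23820985, minus strand) run toward each other and end 138 bases apart. Cldn5 lies on chromosome 16 (18776940 to 18778353, plus strand), Cldn7 on chromosome 11 (69778281 to 69781387, plus strand), Ocln on chromosome 13 (101266462 to 101322673, minus strand) and Tjp1 on chromosome 7 (72441051 to 72516125, minus strand). Cldn5 and Cldn9 are annotated with 1 block of exon, Cldn6 with 3, Cldn7 with 5, Ocln with 10 and Tjp1 with 29. The last 40 bases of Cldn3 overlap Wbscr25 on the other strand, which had 0 to 8 counts per library. Whether counting used strand is not given in the sources used here, so reads in such an overlap cannot be assigned.

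The starts of 6 members are shown because Snail, Zeb and Grainyhead-like factors are known to act at promoters of epithelial junction genes. The RefSeq promoter table, made on GRCm38.p6, holds entries for 7 members, each 250 bases before to 50 bases after the annotated start (300 bases), and every one matched the NCBIM37 genome exactly and once, where the positions below are given. The motif CACCTG, written CAGGTG on the other strand, is an E-box of the kind read by Snail and Zeb repressors and is printed in capitals. The Grainyhead-like motif AACCGGTT, which reads the same on both strands and cannot overlap the E-box, was also searched.

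Cldn3 (chr5:135461834-135462133, plus strand): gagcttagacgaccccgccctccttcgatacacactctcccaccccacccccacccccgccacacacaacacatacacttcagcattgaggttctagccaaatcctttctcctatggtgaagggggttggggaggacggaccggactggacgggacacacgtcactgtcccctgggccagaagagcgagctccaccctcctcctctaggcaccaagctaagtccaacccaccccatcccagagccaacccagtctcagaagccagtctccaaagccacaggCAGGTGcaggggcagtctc
Cldn4 (chr5:135422755-135423054, minus strand): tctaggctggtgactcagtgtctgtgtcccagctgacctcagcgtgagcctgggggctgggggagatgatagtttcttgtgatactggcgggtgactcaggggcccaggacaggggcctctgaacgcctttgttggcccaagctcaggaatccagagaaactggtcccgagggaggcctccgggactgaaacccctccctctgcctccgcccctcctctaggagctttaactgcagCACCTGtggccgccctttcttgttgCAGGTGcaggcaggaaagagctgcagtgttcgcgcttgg
Cldn6 (chr17:23816082-23816381, plus strand): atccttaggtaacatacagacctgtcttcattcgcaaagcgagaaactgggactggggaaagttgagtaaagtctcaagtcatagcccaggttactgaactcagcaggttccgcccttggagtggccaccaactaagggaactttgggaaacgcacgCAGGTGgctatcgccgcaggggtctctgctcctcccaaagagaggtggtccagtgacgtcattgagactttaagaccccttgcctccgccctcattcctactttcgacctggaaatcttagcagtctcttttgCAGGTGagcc
Cldn7, the second of its entries, as the first holds no match (chr11:69778673-69778972, plus strand): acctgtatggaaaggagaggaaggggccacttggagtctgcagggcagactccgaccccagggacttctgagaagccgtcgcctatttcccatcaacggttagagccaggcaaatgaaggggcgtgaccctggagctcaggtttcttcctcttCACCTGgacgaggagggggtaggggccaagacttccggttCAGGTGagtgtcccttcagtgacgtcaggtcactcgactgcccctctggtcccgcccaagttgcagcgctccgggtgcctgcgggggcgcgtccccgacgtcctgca
Ocln, the first of its entries (chr13:101322624-101322923, minus strand): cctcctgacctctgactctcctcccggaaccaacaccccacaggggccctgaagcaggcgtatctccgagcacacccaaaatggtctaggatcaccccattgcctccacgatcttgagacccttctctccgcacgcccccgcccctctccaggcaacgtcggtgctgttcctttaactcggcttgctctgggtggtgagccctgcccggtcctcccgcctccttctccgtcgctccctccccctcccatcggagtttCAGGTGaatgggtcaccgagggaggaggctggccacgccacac
Tjp1 (chr7:72516081-72516380, minus strand), shown as the scaffold without a match: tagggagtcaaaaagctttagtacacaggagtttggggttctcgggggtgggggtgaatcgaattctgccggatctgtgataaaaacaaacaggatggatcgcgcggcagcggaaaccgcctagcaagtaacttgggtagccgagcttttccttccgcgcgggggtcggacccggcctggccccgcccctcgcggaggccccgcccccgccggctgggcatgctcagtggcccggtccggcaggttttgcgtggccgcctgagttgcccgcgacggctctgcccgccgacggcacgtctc

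An E-box match was present in an entry of 5 of the 7 members (Cldn3, Cldn4, Cldn6, Cldn7 and Ocln) and in none of those of Cldn5 and Tjp1. It was in 20.2% of all 32851 promoters, or 22.6% of the 27025 genes. AACCGGTT was in 0 members' entries and in 0.146% of all promoters. These are matches of letters in a short window and no binding was measured.

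Libraries held 21729346 to 37290208 counts at D0 and 18400463 to 34219640 at D6, summed over the first line of each symbol. Levels below are CPM, that is counts brought to a common library size, with edgeR's TMM factors over all 24 libraries. The edited genes were checked first. Tet2 RNA at D0 was 87.9 to 94.0 CPM in WT, and lower in every library with a Tet2 edit (8.16 to 55.7 CPM in Tet2-/-, DKO and TKO). At D6 it was low everywhere, and not lower in Tet2-/- (15.9 to 16.6 CPM) than in WT (12.3 to 16.0 CPM). Tet1 RNA at D0 spanned 220 to 431 CPM in WT and 93.4 to 358 in Tet1-/-, and these ranges overlap. DKO had 231 and 373 CPM and TKO 41.7 and 568 CPM, so Tet1 RNA was not lower in all clones labelled as edited. Tet3 RNA at D0 was 2.84 and 4.43 CPM in TKO, below the 5.05 to 7.94 CPM of WT. At D6 Tet1 RNA was 82.4 to 190 CPM in Tet1-/- and 108 to 125 CPM in WT, so at D6 neither gene's RNA checks the labels of these groups. The study also examined the clones by sequencing of the edited sites and by Western blot, which were not analysed here. Small indels need not remove RNA, so the RNA of the edited genes is a partial check. All 10 ESC markers were detected in each group at D0, and Pou5f1 had 596 to 874 CPM at D0 and 173 to 575 CPM at D6.

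The members differ widely in level. On a scale of CPM per kilobase of annotated exon, WT at D0 had 32.4 ± 2.59 (SD, n = 3) for Tjp1, 22.8 ± 2.73 for Cldn4 and 12.5 ± 1.46 for Cldn6. The rest were low: 1.56 ± 0.0743 for Cldn3, 1.09 ± 0.211 for Ocln, 1.03 ± 0.186 for Cldn7, 0.962 ± 0.370 for Cldn5 and 0.291 ± 0.135 for Cldn9. At D6 the order changed, with Cldn6 at 158 ± 28.1, Tjp1 at 59.4 ± 7.80, Cldn4 at 58.8 ± 11.1, Cldn7 at 31.5 ± 4.65 and Cldn3 at 26.2 ± 7.13. Ocln stood at 5.03 ± 1.19, Cldn5 at 1.58 ± 1.28 and Cldn9 at 0.477 ± 0.251. At D6 the WT ranges of Tjp1 and Cldn4 overlap, and so do those of Cldn7 and Cldn3. These levels use the first line of each symbol. Cldn7 has a second line, with 1914 to 2762 counts in WT at D6 against 1310 to 1851 in the first. Its level per kilobase, and its place beside Cldn3, thus depend on the line used.

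**Figure D1:**
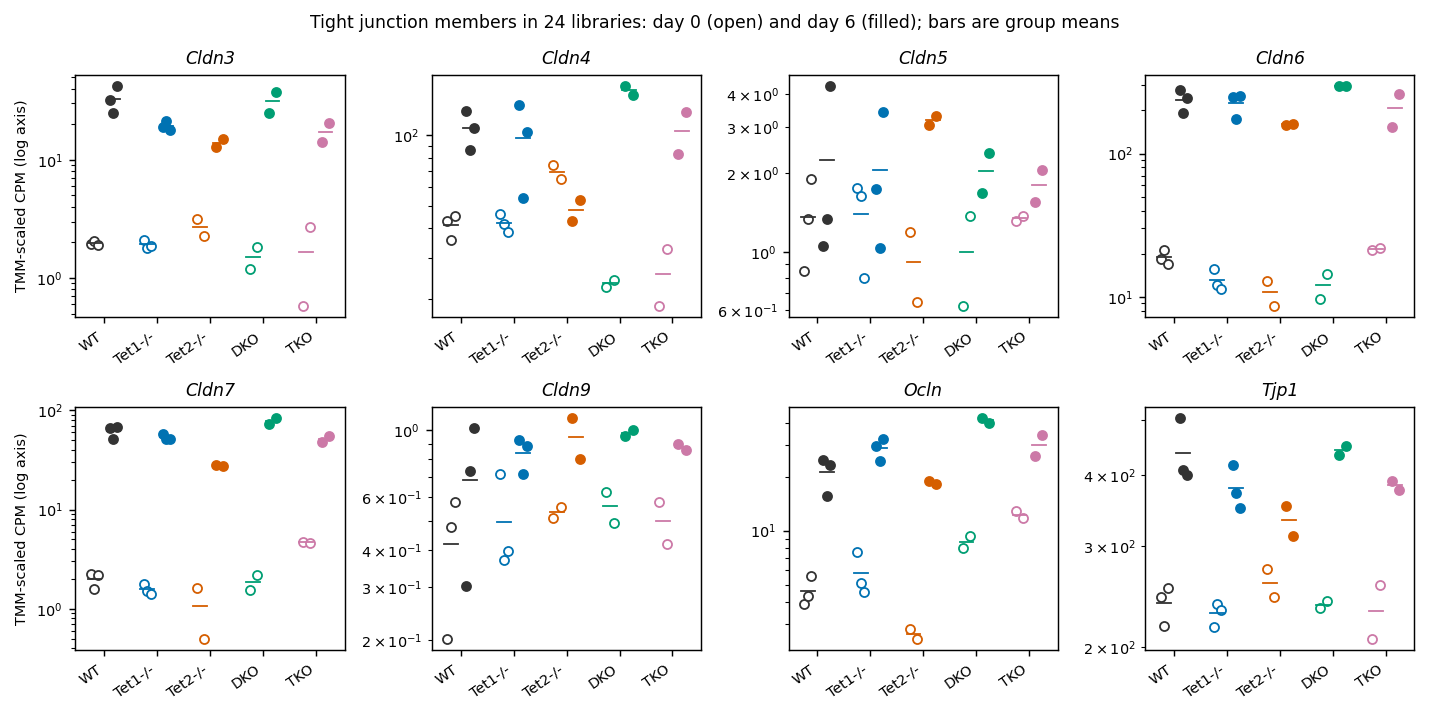
TMM-scaled CPM (log axis, own range in each panel) of the 8 members in each of the 24 libraries, by genotype, with open points for D0, filled points for D6 and bars at group means. Cldn3, Cldn6, Cldn7, Ocln and Tjp1 show every D6 library above every D0 library, while Cldn4, Cldn5 and Cldn9 overlap between days.

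The first comparison asks how the members changed when LIF was withdrawn, within each genotype. In WT, Cldn7, Cldn3, Cldn6, Ocln and Cldn4 rose, so that 5 of 8 members were called higher and 0 lower. A call here means an adjusted p under 0.05 over all 15639 genes tested and a change of more than 2-fold, by the quasi-likelihood test of edgeR after Benjamini-Hochberg adjustment, and a log2 fold change is given ± its standard error. Of all genes, 20.7% were called higher in WT by that rule. Over all genes the median log2 fold change was 0.01, and over the 8 members it was 1.79. In bulk RNA, more cells of a type and more RNA per cell cannot be told apart.

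Cldn7 had the steepest rise. WT clones O4.1, O4.2 and O4.13 held 2.26, 2.18 and 1.60 CPM at D0, and 66.1, 67.2 and 51.0 CPM at D6. The groups are far apart, a 30.4-fold difference (log2 fold change 4.92 ± 0.24, edgeR adjusted p = 2.03e-11). Across all genotypes, Cldn7 ran from 0.497 to 4.74 CPM at D0 and from 27.5 to 82.8 CPM at D6.

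Cldn3 followed. The same WT clones held 1.94, 1.89 and 2.07 CPM at D0 and 31.9, 42.5 and 24.7 CPM at D6, with close values at D0 and a wider spread at D6. Its log2 fold change was 4.07 ± 0.35 (edgeR adjusted p = 1.48e-08). Cldn6 went from 18.4, 16.8 and 21.2 CPM to 276, 244 and 192 CPM, a log2 fold change of 3.66 ± 0.23 (edgeR adjusted p = 2.96e-10).

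Ocln rose from 3.88, 5.60 and 4.32 CPM in O4.1, O4.2 and O4.13 to 24.9, 23.3 and 15.5 CPM, without overlap between days (4.61-fold, standard error 0.21 on the log2 scale, edgeR adjusted p = 5.76e-08). Cldn4 started higher and rose less. It had 43.1, 45.1 and 35.7 CPM at D0 and 126, 107 and 86.0 CPM at D6 (log2 fold change 1.37 ± 0.25, edgeR adjusted p = 0.000116). These WT values also enter the contrast that Cldn4 was chosen on, and without Cldn4 the WT count is 4 of 7. Tjp1, already abundant at 245, 254 and 217 CPM, stood at 503, 400 and 409 CPM at D6. Its log2 fold change of 0.87 ± 0.10 (edgeR adjusted p = 8.87e-07) is below the 2-fold limit.

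Cldn5 and Cldn9 passed no test in WT. Cldn5 had 0.848, 1.89 and 1.34 CPM at D0 and 1.06, 4.32 and 1.34 CPM at D6, so O4.2 alone was high at D6 (log2 fold change 0.73 ± 0.51, edgeR adjusted p = 0.211). Cldn9 had 0.202, 0.576 and 0.475 CPM at D0 and 0.303, 1.02 and 0.732 CPM at D6, with a log2 fold change of 0.74 ± 0.41 (edgeR adjusted p = 0.113). Over all 24 libraries Cldn9 rested on 5 to 38 counts and Cldn5 on 14 to 119. Without WT clone O4.1 at D6, Cldn9 reached the call (log2 fold change 1.07, adjusted p = 0.0219, edgeR).

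Members also rose between days in the knockouts. In Tet1-/-, 5 of 8 were called higher (19.9% of all genes) with log2 fold changes of 5.09 for Cldn7, 4.11 for Cldn6, 3.34 for Cldn3, 2.32 for Ocln and 1.20 for Cldn4. The last of these rests on D6 clone Tet1_KO_2.1, without which it was 0.93. In TKO, 5 of 8 were called higher (16.8% of all genes), with 3.47 for Cldn7, 3.39 for Cldn3, 3.26 for Cldn6, 2.01 for Cldn4 and 1.29 for Ocln. The Cldn3 value was 4.90 without D0 clone TKO_8.4 and 2.67 without D0 clone TKO_8.12. In DKO, 4 of the 7 members tested were called higher (18.6% of all genes), with 5.39 for Cldn7, 4.63 for Cldn6, 4.38 for Cldn3 and 2.25 for Ocln. Tjp1 had 0.73 in Tet1-/-, 0.90 in DKO and 0.73 in TKO, below the 2-fold limit in each.

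Tet2-/- also had 5 of 8 members called higher (12.7% of all genes), with Cldn5 among them and without Cldn4. Cldn7 rose by 4.80, Cldn6 by 3.90, Ocln by 2.82 and Cldn3 by 2.36 on the log2 scale. The Cldn7 value was 5.82 without D0 clone Tet2_KO_3.10 and 4.1 without D0 clone Tet2_KO_3.11. Cldn4 had a log2 fold change of -0.54 ± 0.31 (edgeR adjusted p = 0.167). Cldn5 rose, from 1.19 and 0.643 CPM in clones Tet2_KO_3.10 and Tet2_KO_3.11 to 3.05 and 3.31 CPM (log2 fold change 1.81 ± 0.63, edgeR adjusted p = 0.0282). That call was lost without D0 clone Tet2_KO_3.11 (adjusted p = 0.213), D6 clone Tet2_KO_3.10 (0.0797) or D6 clone Tet2_KO_3.11 (0.0855), and WT clone O4.2 (4.32 CPM) and Tet1_KO_2.4 (3.41 CPM) were higher still at D6. The day change of Cldn5 was not shown to differ between Tet2-/- and WT (interaction 1.08 ± 0.80, edgeR adjusted p = 0.364). The summed level of 12 endothelial markers in Tet2-/- was 136 to 152 CPM at D0 and 77.4 to 87.9 CPM at D6, with 2 and then 1 of them at 0 in both clones, and its part in the Cldn5 value was not tested.

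**Figure D2:**
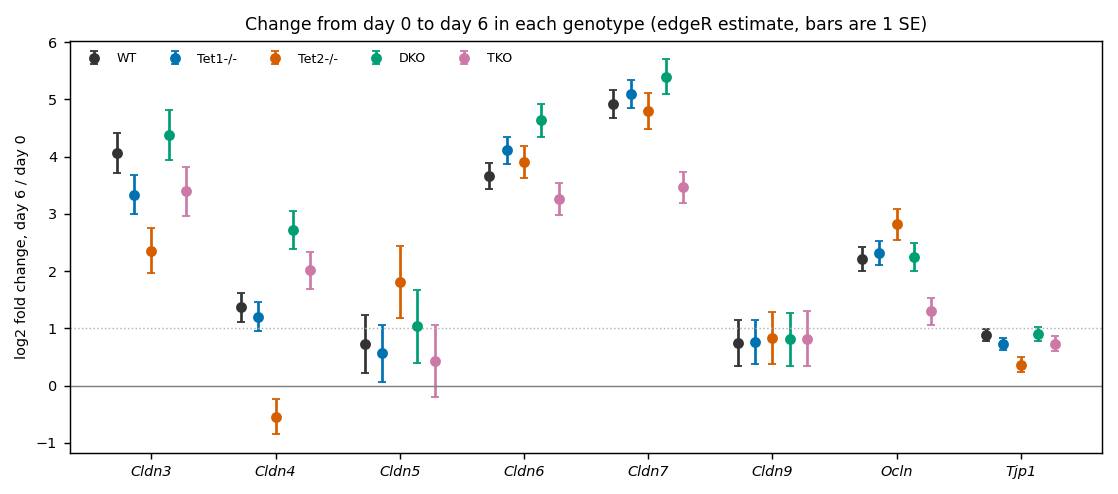
Log2 fold change of D6 against D0 (vertical axis, edgeR estimate, bars 1 standard error) for each member and genotype, with the solid line at 0 and the dotted line at the 2-fold limit. Cldn3, Cldn6, Cldn7 and Ocln lie above the dotted line in all 5 genotypes, and Cldn4 in Tet2-/- lies below 0, at -0.54. The Cldn4 value of DKO (2.72) is a description, as the gene was chosen on it.

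Over the 24 libraries the members that rose varied together. On log2 CPM (pseudocount 1), Cldn6 and Cldn7 had the highest Pearson's r with each other of all genes tested, 0.991. The gene most like Cldn3 was Serinc5 (r = 0.980), for Ocln it was Casp8 (0.962), for Tjp1 Wdr26 (0.979), for Cldn5 Sema4d (0.888) and for Cldn9 Pde4b (0.804). The 5 genes most like Cldn4 were St14 (0.940), 4931406P16Rik (0.935), Endod1 (0.926), A4galt (0.925) and Axl (0.924). St14 encodes matriptase, a membrane protease of epithelia, and Axl a receptor tyrosine kinase. With the other members, Cldn4 had r from 0.370 with Cldn5 to 0.856 with Tjp1. Cldn5 reached at most 0.677, with Cldn9, and Cldn9 at most 0.703, with Ocln. The points share the day of sampling, so each r carries the difference between D0 and D6.

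The other junction genes, taken from lists, are given for WT between D0 and D6 beside the 20.7% of all genes called higher and 13.3% called lower. Of 24 scaffold and polarity genes tested, 13 were called higher and 0 lower, among them Amot, an angiomotin, with a log2 fold change of 6.54, and Inadl (3.26), a PDZ scaffold. Of 12 other tight junction membrane proteins 5 were called higher and 3 lower, with Marveld2 (tricellulin) at 3.25, Crb3, a polarity protein of the apical membrane, at 2.62 and the adhesion molecule Jam2 at -3.89. Of the 19 other claudins only 6 passed the filter on low counts. Of these 4 were called higher, and Cldn1 went from 0.0404 to 0.206 CPM at D0 to 1.63 to 2.37 CPM at D6. Of 21 adherens junction, desmosome and keratin genes 9 were called higher and 0 lower, led by Krt18 (5.54) and Krt8 (5.20). Of 16 regulators of epithelial junction genes 6 were called higher and 3 lower. Twist2 (7.06) and Zeb2 (5.89), both transcriptional regulators known from epithelial to mesenchymal change, rose and Klf4 (-3.00) fell. The median log2 fold changes of these lists were 1.12, 0.81, 2.91, 0.68 and 0.64, against 0.01 over all genes.

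Lineage markers in WT changed in both directions, beside 20.7% of all genes called higher and 13.3% lower. Of 11 trophectoderm markers 9 were called higher and 0 lower, of 10 mesoderm markers 10 and 0, of 7 surface ectoderm markers 4 and 0, of 10 visceral endoderm markers 5 and 1, of 10 endothelial markers 2 and 4, and of 10 ESC markers 0 and 9. Some genes count in more than 1 list. Krt8 and Krt18 are in the trophectoderm, surface ectoderm and keratin lists. Hand1 is in the trophectoderm and mesoderm lists, and Gata4 in the mesoderm and visceral endoderm lists. The part of changing cell types in the rise of the members was not tested.

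The next comparison asks which members a Tet deletion changed in undifferentiated cells. The 4 knockouts share the WT libraries. At D0 calls were made in TKO, 2 higher and 0 lower of 8 (1.03% of 14456 genes were called higher). Ocln had 11.7 and 12.8 CPM in TKO clones TKO_8.4 and TKO_8.12 against 3.88 to 5.60 CPM in WT, without overlap. This is a 2.66-fold difference (log2 fold change 1.41 ± 0.23, edgeR adjusted p = 0.00584). Cldn7 had 4.64 and 4.74 CPM against 1.60 to 2.26 CPM in WT, also apart (log2 fold change 1.21 ± 0.34, edgeR adjusted p = 0.0478). The Cldn7 call sits at the threshold and was lost without any single WT clone (adjusted p = 0.0823 without O4.1, 0.0949 without O4.2 and 0.159 without O4.13). In a fit of TKO and WT alone, both calls were lost at log2 fold changes of 1.40 and 1.21 (edgeR adjusted p = 0.107 for Ocln and 0.137 for Cldn7). With the replicate number of the titles as a block, the Cldn7 call was lost as well (1.11, edgeR adjusted p = 0.0914).

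TKO clone TKO_8.12 stood apart from TKO_8.4 at D0 in the neighbours on chromosome 5. Cldn3 was 0.577 CPM in TKO_8.12 and 2.72 CPM in TKO_8.4, and Cldn4 was 18.7 and 32.7 CPM. With both clones Cldn3 and Cldn4 passed no call (log2 fold changes -0.26 and -0.68, adjusted p = 0.755 and 0.0511, edgeR). TKO_8.12 alone against WT gave -1.76 and -1.15 (adjusted p = 0.00455 and 0.000189, edgeR). These p-values assume that this 1 library varies like the other groups, and are values of a single clone. In both TKO clones the 9 surface ectoderm markers summed to 89.1 to 92.7 CPM against 58.6 to 64.1 CPM in WT, with 0 of 5 tested called and 1 at 0 in TKO. The 11 trophectoderm markers summed to 97.0 to 110 CPM against 92.2 to 124 CPM (1 of 8 tested higher and 1 lower) and the 13 visceral endoderm markers to 86.6 to 122 CPM against 107 to 118 CPM. Of the 9 visceral endoderm markers tested 1 was called lower and 0 higher, while their median log2 fold change was 1.01, and the part of these markers in the Ocln and Cldn7 values was not tested. Clone TKO_8.12 also had the lowest Tet1 RNA of the D0 libraries, 41.7 CPM against 568 in TKO_8.4, and the part of this in the values was not tested.

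Of the other junction membrane genes, 2 were called higher in TKO at D0, Marveld2 (log2 fold change 1.11, adjusted p = 0.00943) and Ildr2 (1.12, adjusted p = 0.0310), both components of tricellular contacts. The desmosomal plakophilin Pkp2 was higher as well (1.12, adjusted p = 0.0204, edgeR). Beside 1.03% of all genes called higher and 2.12% lower, these were 2 of 12 membrane proteins and 1 of 21 adherens junction, desmosome and keratin genes, while 0 of 24 scaffold and polarity genes were called. The medians of these lists were 0.37, 0.23 and 0.21, against 0.02 over all genes.

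In Tet2-/- at D0, 0 of 8 members were called by edgeR or by DESeq2, and 4 had an unadjusted p under 0.05 (3.19% of all genes were called in either direction). Cldn4 had 74.4 and 64.7 CPM in Tet2_KO_3.10 and Tet2_KO_3.11, above all other D0 libraries. Its 1.66-fold difference from WT (log2 fold change 0.73 ± 0.19, edgeR adjusted p = 0.0328) is below the 2-fold limit. Cldn6 lay on the other side, at 12.9 and 8.59 CPM against 16.8 to 21.2 CPM in WT (log2 fold change -0.83 ± 0.22, edgeR adjusted p = 0.0395). Ocln had 2.82 and 2.48 CPM, below all other libraries, with a log2 fold change of -0.82 (adjusted p = 0.0571), and Cldn7 had -1.01 (edgeR adjusted p = 0.115), with Tet2_KO_3.11 at 0.497 CPM and Tet2_KO_3.10 at 1.62 CPM. Over alternatives the Cldn7 value ran from -2.03 without Tet2_KO_3.10 to -0.32 without Tet2_KO_3.11.

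Among the lists in Tet2-/- at D0, 2 of 15 regulators were called lower and 0 higher, beside 2.37% of all genes called lower. They are Esrp1, an epithelial splicing factor, and Grhl2, a transcription factor of claudin genes (log2 fold changes -1.80 and -1.11, adjusted p = 0.00854 and 0.0282, edgeR), and the list median was -0.19. Of 21 adherens junction, desmosome and keratin genes 1 was lower, and of 24 scaffold and polarity genes, 12 other membrane proteins and 3 other claudins 0 were called. Among lineage markers 2 of 8 trophectoderm and 1 of 9 visceral endoderm markers were called lower.

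In Tet1-/- at D0, 0 of 8 members were called by edgeR or DESeq2 and 1 had an unadjusted p under 0.05 (0.00692% of all genes were called). The nearest was Cldn6, at 11.3 to 15.7 CPM (log2 fold change -0.55 ± 0.20, edgeR adjusted p = 0.273). In DKO, 0 of the 7 members tested were called by edgeR or DESeq2 and 2 had an unadjusted p under 0.05 (0.0346% of all genes were called). Ocln had 8.0 and 9.35 CPM in DKO_5.11 and DKO_5.12, above the 3.88 to 5.60 CPM of WT, with a log2 fold change of 0.90 ± 0.23 (edgeR adjusted p = 0.128). Cldn4, chosen on its DKO values, had 22.7 and 24.3 CPM in DKO_5.11 and DKO_5.12 and 35.7 to 45.1 CPM in WT.

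After 6 days without LIF, members were lower than WT in Tet2-/-, where 3 of 8 were called lower and 0 higher (9.45% of 15435 genes were called lower). Cldn7 had 28.2 and 27.5 CPM in Tet2_KO_3.10 and Tet2_KO_3.11 against 51.0 to 67.2 CPM in WT. It was 2.23-fold lower (log2 fold change -1.16 ± 0.15, edgeR adjusted p = 0.00410). Cldn3 had 12.8 and 15.0 CPM against 24.7 to 42.5 CPM in WT, 2.42-fold lower (log2 fold change -1.27 ± 0.27, edgeR adjusted p = 0.00982).

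Cldn4 was the third. It had 42.9 and 52.6 CPM in Tet2_KO_3.10 and Tet2_KO_3.11 against 86.0 to 126 CPM in WT, 2.26-fold lower (log2 fold change -1.17 ± 0.33, edgeR adjusted p = 0.0252). All 3 members lay below every WT library. Without Tet2_KO_3.11 all 3 calls were lost (adjusted p = 0.0663 to 0.115) while the log2 fold changes were -1.39 for Cldn3, -1.33 for Cldn4 and -1.14 for Cldn7, and that fit called 0 genes in all, against 2201 with both clones. Without Tet2_KO_3.10 Cldn3 and Cldn4 were lost (-1.16 and -1.03, adjusted p = 0.0843 and 0.158), with 304 genes called in all. Without WT clone O4.1 Cldn4 was lost (-1.01, adjusted p = 0.0727).

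Tjp1 in Tet2-/- had 354 and 314 CPM against 400 to 503 CPM in WT, a difference under 2-fold (log2 fold change -0.41 ± 0.12, edgeR adjusted p = 0.0324). Cldn6 had 159 and 161 CPM against 192 to 276 CPM (log2 fold change -0.59, adjusted p = 0.0819), and Ocln had 19.0 and 18.3 CPM, within the 15.5 to 24.9 CPM of WT (-0.21, adjusted p = 0.482, edgeR). Cldn5 and Cldn9 had log2 fold changes of 0.47 and 0.43 with standard errors of 0.59 and 0.41, and the Cldn5 value ran from 0.18 to 1.38 over alternatives, the latter without WT clone O4.2. The median over the 8 members was -0.50, against -0.03 over all genes.

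The other junction genes in Tet2-/- at D6 are read beside 9.45% of all genes called lower and 4.81% higher. Among 24 scaffold and polarity genes, 5 were called lower and 0 higher, with Amot at -3.00, Tjp3 (ZO-3), a relative of Tjp1, at -1.58 and Amotl2 at -1.58 on the log2 scale. Among 21 adherens junction, desmosome and keratin genes, 6 were called lower and 1 higher, with the simple epithelial keratins Krt19 (-3.79), Krt8 (-3.40) and Krt18 (-3.29) ahead. Of 12 other membrane proteins 1 was lower (Crb3, -1.25) and 1 higher (Jam2, 2.06), of 7 other claudins 1 was lower (Cldn11, with 0.105 to 0.259 CPM in Tet2-/- and 0.472 to 0.923 CPM in WT), and of 16 regulators 2 were lower (Twist2, -3.08, and Snai1, -3.01). The list medians were -0.40, -0.73, 0.07, -0.46 and 0.04.

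Markers of differentiated lineages differed in the same libraries. The 11 trophectoderm markers summed to 193 to 221 CPM in Tet2-/- and 774 to 1778 CPM in WT, and 9 of 11 were called lower, with 1 at 0 in both Tet2-/- clones. The 9 surface ectoderm markers summed to 124 to 128 against 571 to 1313 CPM (3 of 8 tested were lower), the 10 mesoderm markers to 20.2 to 28.3 against 177 to 629 CPM (7 of 10 were lower), and the 13 visceral endoderm markers to 42.7 to 47.5 against 102 to 321 CPM (5 of 10 tested were lower). Of 9 endothelial markers tested, 1 was higher and 2 were lower. The 10 ESC markers summed to 2289 to 2503 CPM in Tet2-/- and 847 to 1764 CPM in WT, with 3 called higher and 1 lower. Krt8 and Krt18, called lower above, count in the trophectoderm, surface ectoderm and keratin lists alike, so the counts of these lists are not separate. The part of these lineages in the lower claudin values was not tested.

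The remaining knockouts had 0 members called at D6, by edgeR or by DESeq2. In Tet1-/- 2 of 8 members had an unadjusted p under 0.05, in DKO 2 of 7 and in TKO 2 of 8. Over all genes edgeR called 0% in each of the 3 comparisons, and DESeq2 called 43, 185 and 470 genes. In TKO the edgeR count was 721 without WT clone O4.2 and 266 without TKO_8.4, and in DKO it was 6 without O4.2. The values of these knockouts are given side by side, and the knockouts were not tested against each other.

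Cldn3 at D6 had 19.0, 21.5 and 17.8 CPM in Tet1_KO_2.1, Tet1_KO_2.2 and Tet1_KO_2.4 and 20.4 and 14.1 CPM in TKO clones TKO_8.4 and TKO_8.12, each below the lowest WT value of 24.7 CPM. The log2 fold changes were -0.77 in Tet1-/- (adjusted p = 0.323) and -0.92 in TKO (edgeR adjusted p = 0.0904). In DKO Cldn3 had 24.8 and 37.7 CPM, within the range of WT. Ocln lay the other way, with 42.3 and 40.0 CPM in DKO clones DKO_5.11 and DKO_5.12, above every other library (log2 fold change 0.96 ± 0.21, edgeR adjusted p = 0.171). Cldn7 in DKO was 73.4 and 82.8 CPM (log2 fold change 0.35, adjusted p = 0.296) and Cldn6 was 296 and 298 CPM (0.32, adjusted p = 0.536, edgeR), the highest libraries of both genes.

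Cldn4 in DKO at D6 had 162 and 147 CPM, the highest of the 24 libraries, next to 86.0 to 126 CPM in WT. Set beside the D0 values, the DKO effect was -0.83 at D0 and 0.54 at D6, and the difference of 1.35 on the log2 scale (standard error 0.40) is what the gene was chosen for. Over the other members that difference was 0.97 for Cldn6, 0.47 for Cldn7, 0.31 for Cldn3, 0.30 for Cldn5, 0.06 for Cldn9, 0.04 for Ocln and 0.03 for Tjp1. Over all genes, 0% were called for this contrast.

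**Figure D3:**
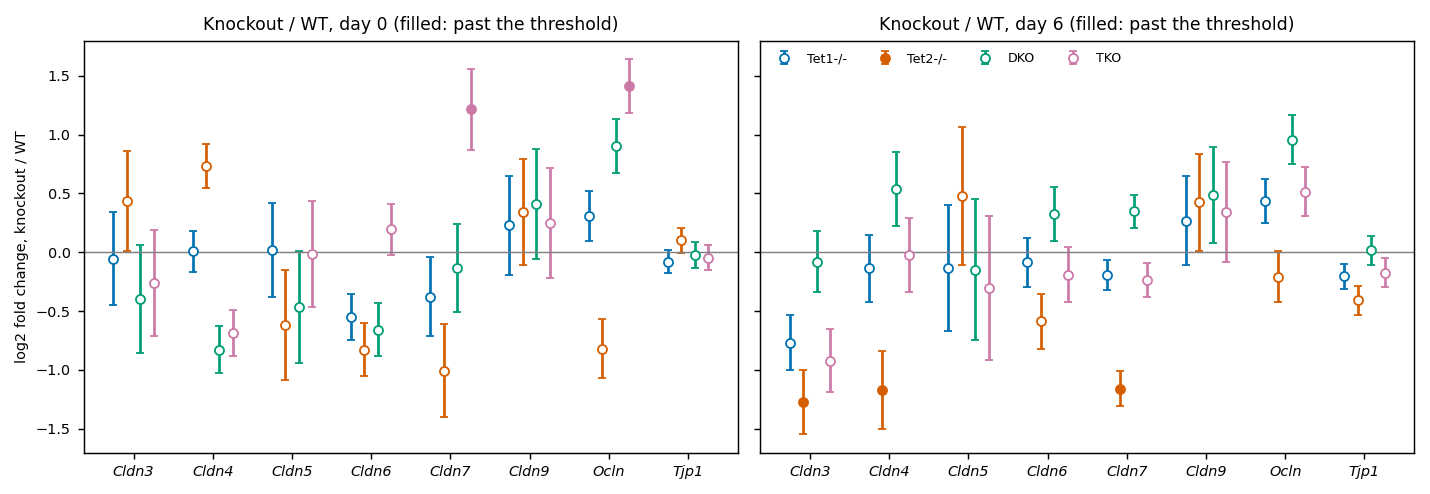
Log2 fold change of each knockout against WT at D0 (left) and D6 (right) for the 8 members (edgeR estimate, bars 1 standard error), with filled points for members past the threshold. Filled points are Cldn7 and Ocln in TKO at D0 and Cldn3, Cldn4 and Cldn7 in Tet2-/- at D6. Cldn4 in DKO is an open point with no test.

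The last comparison asks whether a knockout effect differed between D6 and D0, tested as an interaction in 1 fit of the 24 libraries. For Tet2-/-, 2 of 8 members were called, both lower at D6 (5.13% of 15639 genes were called lower). Cldn4 was 1.66-fold higher than WT at D0 and 2.26-fold lower at D6. The interaction was -1.91 ± 0.40 on the log2 scale (edgeR adjusted p = 0.00659). Cldn3 had 3.16 and 2.28 CPM at D0, above the 1.89 to 2.07 CPM of WT, with a difference at D0 that did not pass the test (log2 fold change 0.44 ± 0.42, edgeR adjusted p = 0.518), and lay below WT at D6 (interaction -1.71 ± 0.51, edgeR adjusted p = 0.0303). The Cldn4 call held in every alternative (-2.06 to -1.77). The Cldn3 call was lost without D0 clone Tet2_KO_3.10 (adjusted p = 0.144), D0 clone Tet2_KO_3.11 (0.0507), D6 clone Tet2_KO_3.10 (0.109), D6 clone Tet2_KO_3.11 (0.0773), D0 WT clone O4.2 (0.0583) or D0 WT clone O4.13 (0.0553). Cldn4 was chosen on DKO and WT, and its Tet2-/- contrast shares those WT libraries.

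**Figure D4:**
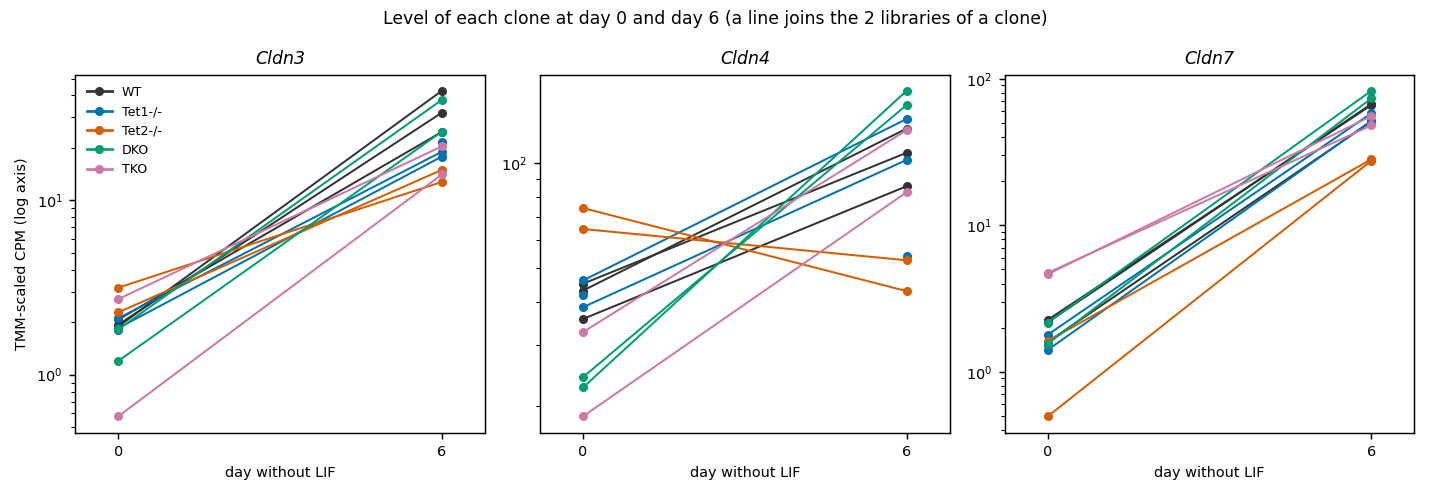
TMM-scaled CPM (log axis) of Cldn3, Cldn4 and Cldn7 at day 0 and day 6 without LIF, with a line between the libraries of a clone sampled at both days and single points for Tet1_KO_2.3 and Tet1_KO_2.2. Both Tet2-/- lines of Cldn4 slope down, from 74.4 to 42.9 CPM (Tet2_KO_3.10) and from 64.7 to 52.6 CPM (Tet2_KO_3.11), while the lines of the other genotypes slope up.

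Tjp1 had an interaction of -0.51 in Tet2-/- (standard error 0.16, adjusted p = 0.0419, edgeR), under 2-fold. Of the 5 genes most like Cldn4, St14 (-1.41), Endod1 (-1.31), A4galt (-1.46), Axl (-2.14) and 4931406P16Rik (-0.40) had values below 0 in this contrast. They were picked for following Cldn4 over these libraries, so these values are a description with no test. Of all genes, 5.13% were called lower and 3.54% higher in this contrast. Among the lists, 4 of 24 scaffold and polarity genes (Tjp3 -2.16, Amotl2 -1.85, Pard6b -1.40) and 6 of 21 adherens junction, desmosome and keratin genes (Krt8 -3.62, Krt19 -3.50, Krt18 -2.59) were called lower and 0 higher, while Jam2 (2.42) was the 1 of 12 membrane proteins called, higher. Of 16 regulators 3 were higher and 1 lower, with Snai1 at -3.50 and Esrp1 at 1.74, and of 6 other claudins 0 were called. The list medians were -0.50, -0.74, 0.27, 0.16 and -0.52, and the 8 members' median was -0.02, against 0.01 over all genes. Lineage markers called lower were 4 of 11 trophectoderm, 4 of 10 mesoderm, 2 of 10 visceral endoderm, 2 of 7 surface ectoderm and 2 of 10 endothelial, with 0 higher. Their medians were -2.59, -5.20, -1.39, -0.48 and 0.46. Of 10 ESC markers 3 were called higher and 0 lower (median 1.17). The part of these markers in the Cldn4 and Cldn3 values was not tested.

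For TKO, 1 of 8 members was called (1.74% of all genes were called lower). Cldn7 was 2.32-fold higher than WT at D0 and had 55.6 and 48.0 CPM in TKO_8.4 and TKO_8.12 at D6, below or within the WT range of 51.0 to 67.2 CPM. The interaction was -1.46 ± 0.34 (edgeR adjusted p = 0.0187). It was lost without D0 WT clone O4.13 (adjusted p = 0.0524), without D6 clone TKO_8.12 (0.0504) and in a fit of the groups compared alone (0.0832). Ocln moved the same way without a call (-0.91 ± 0.32, edgeR adjusted p = 0.0898). Its tricellular relative Marveld2 was called lower in this contrast (-1.04, adjusted p = 0.0182), as were the scaffold genes Cgnl1 (-1.33), Pard6b (-1.11) and Arhgef2 (-1.10), 3 of 24. Among lineage markers in the TKO contrast, 3 of 10 visceral endoderm, 2 of 10 mesoderm and 1 of 11 trophectoderm markers were called lower and 0 higher (median log2 differences -1.63, -3.61 and -0.70). Of 10 endothelial markers 1 was called higher and 2 lower (median 0.37), and of 7 surface ectoderm and 10 ESC markers 0 were called. The part of these markers in the Cldn7 value was not tested. For Tet1-/-, 0 of 8 members were called by edgeR or DESeq2, 0 had an unadjusted p under 0.05, and 0% of all genes were called by edgeR, against 12 genes by DESeq2.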

How the data were processed

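Polyadenylated RNA of 13 ESC clones, counted by their labels, was sequenced as paired reads in 24 libraries, 12 at D0 and 12 at D6. The authors aligned reads to mm9 with STAR 2.5.1 and deposited raw read counts for each RefSeq transcript line, without normalization or pooling of clones. The paper added ERCC spike-in RNA and normalized read counts with it. The count tables hold 0 lines for the spike-ins, so that scaling could not be repeated here, and TMM was used in its place. HTSeq and featureCounts are both named as the counter, and strand is not given in the sources used here. Of 31928 lines, the first of each of 22926 symbols was kept (4911 symbols have several, among them Cldn7 and Tjp1).

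Genes were filtered with filterByExpr (minimum count 10), scaled by TMM and tested with edgeR 4.0.16 (limma 3.58.1, R 4.3.3) by quasi-likelihood F tests. Each day was fitted alone for knockouts against WT (14456 genes at D0 and 15435 at D6), and all 24 libraries together (15639 genes) for D6 against D0 and the interaction. p-values were adjusted by Benjamini-Hochberg over all genes of a fit. A call needed an adjusted p under 0.05 and over 2-fold. Alternatives were DESeq2 1.42.0, its size factors, library totals, no filter, other line choices, no fold limit, fits of the groups compared alone, blocks, and leaving out each library. Scripts were tested on simulated data.

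The named genes are the members, the edited genes, ESC markers, up to 3 called genes a list by size of change and the genes most like each member. The members and lists were chosen with earlier results of these data known. Clones labelled alike at both days pair 11 clones across days, whose deviations from group means correlated at 0.0813 to 0.193, and a block on the clone changed none of the 27 member calls it covers.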

Additional observations from a re-analysis of the deposited data

Results flagged for a closer look

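In 3 members, the effect of a knockout differed between D0 and D6 by the interaction test of edgeR. Cldn4 in Tet2-/- had a D6 minus D0 difference of the log2 effect of -1.91 (adjusted p = 0.00659), from 0.73 at D0 to -1.17 at D6, and both clones lay above every WT library at D0 and below every one at D6. Cldn3 in Tet2-/- had -1.71 (adjusted p = 0.0303), with a D0 effect of 0.44 (adjusted p = 0.518) and a D6 effect of -1.27. Cldn7 in TKO had -1.46 (adjusted p = 0.0187), with both clones above WT at D0 and at 48.0 and 55.6 CPM beside 51.0 to 67.2 CPM in WT at D6. These are 3 of 24 pairs of a member and a knockout tested, where of all genes 8.68% were called in Tet2-/-, 3.58% in TKO and 0% in Tet1-/-. All 3 contrasts use the same WT libraries. Cldn4 was chosen on a contrast of DKO with these WT libraries, so its test in Tet2-/- is not free of that choice.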

How the results depend on the processing

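No called value reversed its direction under any alternative. DESeq2, its size factors, no filter on low counts, the line with the largest total and the sum of lines each kept all 32 member calls and added 0, and so did the clone block for the 27 calls it covers, those between days and of the interaction. For knockouts against WT at D0, the 2 calls became 1 with library totals (Cldn7 in TKO lost, edgeR adjusted p = 0.0592), 0 with only the groups compared and 4 without the fold limit. They became 1 with the replicate block (Cldn7 in TKO lost, edgeR adjusted p = 0.0914). That block is the title number, which is shared across genotypes, and the deviations that share it at D0 correlated from -0.0511 to 0.312. Leaving out 1 library gave 1 to 4 calls at D0, 0 to 3 at D6 (main value 3) and 1 to 4 for the interaction (main value 3). The count of 24 calls between days stayed within 1.5 times, and 2 of its values moved by more, Cldn3 in TKO (2.67 to 4.90) and Cldn7 in Tet2-/- (4.1 to 5.82), each by leaving out a D0 clone. Calls were gained for Cldn9 in Tet1-/- between days without D0 Tet1_KO_2.1 (1.13), for Cldn3 in the TKO interaction without D0 TKO_8.12 (-1.40) and for Cldn5 in the Tet2-/- interaction without D6 WT clone O4.2 (1.99). With only the groups compared, Cldn5 was called between days in DKO (1.09, edgeR adjusted p = 0.0363).

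Library totals moved the median of all genes between days by 0.139 to 0.209 on the log2 scale, brought Tjp1 past 2-fold in WT (1.02) and DKO (1.11), and changed the split of higher and lower calls from 2904 and 1660 to 3531 and 1168 in DKO and from 2626 and 1350 to 3124 and 950 in TKO. Counts over all genes at D0 moved from 1 to 29 (no filter), 50 (DESeq2) and 75 (only the groups compared) in Tet1-/-, from 5 to 79, 110, 133 and, with the replicate block, 17 in DKO, and from 455 to 3 with only the groups compared in TKO. At D6, from 0, DESeq2 gave 43 in Tet1-/-, 185 in DKO and 470 in TKO, no filter gave 93 in TKO and only the groups compared 3 in DKO. Between days TKO went from 3976 to 2117 with only the groups compared. For the interaction, DESeq2 gave 12 in Tet1-/- and 20 in DKO from 0, only the groups compared gave 5 in DKO from 0 and 3 in TKO from 560, and the clone block 3 in DKO from 0. Leaving out 1 library also moved counts over all genes: in Tet2-/- 5 to 590 from 461 at D0, 0 to 2635 from 2201 at D6 and 408 to 2096 from 1357 for the interaction, and in TKO 226 to 1147 from 455, 0 to 721 from 0 and 300 to 1146 from 560. An arm left with 1 library is assumed to vary like the other groups. The causes were not tested. Precision is limited by groups of 2 or 3 clones and by counts as low as 5 (Cldn9).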
